A study of Homo sapiens with 12 samples.

Results

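Silencing of eIF4G1 was examined in total RNA, the RNA of the whole cell lysate before any separation by ribosome load. Of the 12 arrays in the study, 4 carry such RNA, and they were identified by their titles. They hold MCF10A cells, an established mammary epithelial line usually regarded as non-tumorigenic, which the labels list under breast cancer. The groups were wild-type cells (WT) without irradiation (mock), WT cells given 10 Gy from a linear accelerator, cells in which doxycycline switches on a short hairpin RNA against eIF4G1 (4GKD in the labels, here knockdown), without irradiation, and knockdown cells given 10 Gy. Each group was 1 array, so that the knockdown was compared with WT in 2 matched pairs, mock and irradiated. The sources used here do not state the time after irradiation, whether the WT group had doxycycline or a control hairpin, how many hairpins or clones were used, or whether the arrays came from separate cultures. Hairpin, drug and loss of eIF4G1 therefore cannot be told apart, and p-values reflect the spread among these arrays alone, which may be technical. In bulk RNA, fewer cells of a type and less RNA per cell cannot be told apart either. The other 8 arrays hold a light (LMW) and a heavy (HMW) polysome pool of the same 4 conditions and are used for comparison only.

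The eIF4G1 protein is the scaffold of the cap-binding complex. It ties the cap-binding protein eIF4E and the helicase eIF4A to the ribosome through eIF3 and to the poly(A)-binding protein at the tail of the mRNA. Total RNA does not measure translation itself; it shows which mRNAs became more or less abundant while the scaffold was low. Mammary basal epithelial cells like MCF10A secrete a basement membrane, attach to it through integrins and hemidesmosomes, and hold each other through desmosomes and cadherins.

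The target itself was low in both knockdown arrays. Probe set intensities (linear scale, made by the authors with the array normalization method RMA) are given here in the order mock, then 10 Gy. EIF4G1 read 1028 and 864 in the WT arrays and 163 and 176 in the knockdown arrays, which leaves 15.9% of the WT level in the mock pair and 20.4% in the irradiated pair. The difference, knockdown minus WT averaged over the pairs, was -2.47 ± 0.12 on the log2 scale. Every value after ± is limma's moderated standard error with n = 2 pairs, every difference is on the log2 scale, and every adjusted p is limma's with Benjamini-Hochberg adjustment over all 10157 genes tested, called below 0.05. Of the 15 cap-binding genes tested, 4 rose and 2 fell, where over all genes 20.7% rose and 19.8% fell. The median of these 15 genes was 0.04, beside 0.03 for all genes. EIF4G2, a related scaffold that lacks the eIF4E-binding part, read 6868 and 6954 in the WT arrays and 6789 and 6863 in the knockdown arrays. EIF4E, the cap-binding protein, read 967 and 911 in the WT arrays and 943 and 1036 in the knockdown arrays, and EIF4B, a helper of the helicase, read 2181 and 2029 in the WT arrays and 1805 and 2160.2 in the knockdown arrays. None of these 3 passed the test in the probe set used, and other probe sets gave -0.69 to -0.01 for EIF4E and 0.04 to 0.49 for EIF4B. With the median of probe sets EIF4E was at -0.69 and EIF4B at 0.35, and both passed (adjusted p = 0.00447 and 0.0195). PABPC1, the poly(A)-binding protein, also showed no difference that passed the test (0.02 ± 0.05).

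Among the 6 cap-binding genes that passed, EIF4EBP1 fell besides EIF4G1. EIF4EBP1 encodes an inhibitor that competes with eIF4G for eIF4E, and it read 1189 and 941 in the WT arrays and 825 and 539.9 in the knockdown arrays (-0.66 ± 0.11, adjusted p = 0.000861). MKNK2 and MKNK1, kinases that dock on eIF4G and phosphorylate eIF4E, rose by 0.68 ± 0.08 and 0.35 ± 0.11, though MKNK1 did not pass without the treatment term (adjusted p = 0.0737). EIF4E3 and EIF4E2, relatives of eIF4E, rose by 0.59 and 0.48, but another probe set of EIF4E2 gave -1.19.

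Whole-series facts that bear on the values are few. Median intensities of the 12 arrays lay between 22.6 and 24.4, and 10157 of 19775 genes reached a log2 value of 6 (an intensity of 64) in at least 4 arrays and were tested. Of these, 2100 rose and 2013 fell, and 157 (1.55%) rose and 433 (4.26%) fell at least 2-fold. The calls rest on a spread estimated from 2 pairs with 1 residual degree of freedom. limma moderated this spread towards a trend over all genes, with 8.62 prior degrees of freedom. Each value after ± therefore draws mostly on other genes and does not give the spread between a gene's own pairs. The cytokine gene IL24, for example, was at 3.62 and 2.62 in its pairs, with ± 0.19. When the spread was pooled over all 12 arrays instead, 36 genes rose and 71 fell, and of the 273 genes named by the rule used here, 41 of the 244 that passed kept their call. Adjusted p-values from that limma fit over 12 arrays are given below as p12, for part of the genes only. The other 203 of the 244 lost their call in it, so a gene printed without p12 may have failed. Examples are IL6 (p12 = 0.116), BMP2 (0.107), ALDH1A3 (0.17), APRT (0.152), FTL (0.108), ID1 (0.101), BMPR2 (0.208) and CXCL8 (0.388). Some were further from passing, such as CYP1B1 (0.503), RPE (0.581), ELOVL6 (0.6), EHF (0.629) and ATG12 (0.701). Some genes printed without it passed, such as ATF3 (p12 = 0.031). Basal mammary markers were measured throughout, with all 10 of 10 measured at or above log2 6 in every total RNA array. Of 14 luminal markers 8 were below it in all 4 arrays, among them ESR1, PGR, FOXA1 and KRT19, and of 9 blood and endothelial markers 8 were below it.

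Outside mitosis, replication and interferon genes, which were left out of the ranking, the highest difference was that of IL24, a cytokine of the interleukin-10 family. It read 92 and 191 in the WT arrays and 1134 and 1179.7 in the knockdown arrays (3.12 ± 0.19, adjusted p = 5.59e-06; p12 = 0.0225). ZNF91, a zinc finger repressor of transposon sequences, read 81.6 and 85.4 in the WT arrays and 456 and 480.2 in the knockdown arrays (2.49 ± 0.11, adjusted p = 1.95e-06; p12 = 0.0405). Both knockdown arrays stood above both WT arrays for these genes, which the ranking favours, since it asked for at least 1 (log2) in both pairs. WT cells had a higher IL24 level after 10 Gy than without. SOX9, a transcription factor of progenitor cells, read 106 and 133 in the WT arrays and 389 and 511 in the knockdown arrays (1.91 ± 0.11, adjusted p = 3.67e-06; p12 = 0.031). IRS1, the adaptor of the insulin and IGF1 receptors, read 132 and 97.5 in the WT arrays and 493 and 405 in the knockdown arrays (1.97 ± 0.11; p12 = 0.0225). ATF3, a stress-induced transcription factor, read 55.2 and 76 in the WT arrays and 244 and 350.4 in the knockdown arrays (2.17 ± 0.12). The other genes among the 12 highest were IL13RA2, the decoy receptor for interleukin-13 (at most 38.5 in WT, below log2 6), the linker histone gene H1-2, TPRG1, the arrestin-like ARRDC4, the sodium pump regulator FXYD3, the gelatinase MMP9 and the histone deacetylase HDAC9, at 1.88 to 2.32.

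The lowest difference was that of DCN, which encodes the small collagen-binding proteoglycan decorin. It read 1134 and 1487 in the WT arrays and 132 and 122 in the knockdown arrays, a 10.2-fold fall (-3.36 ± 0.13, adjusted p = 1.27e-06; p12 = 0.0225). ALOX5AP, the protein that presents arachidonate to 5-lipoxygenase, read 857 and 1003 in the WT arrays and 139 and 117 in the knockdown arrays (-2.86 ± 0.13, adjusted p = 2.02e-06; p12 = 0.0225). LTBP1, which holds latent TGF-beta in the matrix, read 1666 and 1576 in the WT arrays and 229 and 222 in the knockdown arrays (-2.85 ± 0.10, adjusted p = 1.27e-06; p12 = 0.0225). For all 3 the knockdown arrays lay close together and far below both WT arrays. TAGLN, an actin-binding protein of contractile cells, read 499 and 482 in the WT arrays and 98.3 and 69.8 in the knockdown arrays (-2.56 ± 0.13), while 1 of its other probe sets gave -0.13 and another -2.66. The probe set used for TAGLN has a name ending in _s_at, as has that of EIF4G1. Without probe sets named _x_at or _s_at the value was -0.13 and TAGLN did not pass (adjusted p = 0.589). DPYSL2, a tubulin-binding protein, read 2629 and 2232 in the WT arrays and 453 and 479 in the knockdown arrays (-2.38 ± 0.11; p12 = 0.0225), and the matrix crosslinking enzyme LOX read 376 and 368 in the WT arrays and 69.4 and 74.1 in the knockdown arrays (-2.38 ± 0.12; p12 = 0.0739). The other genes among the 12 lowest were EIF4G1 itself, the thiol methyltransferase gene TMT1A, the receptor MRGPRX3, MESD, a chaperone of LDL receptor family proteins (another probe set gave -0.65), the ubiquitin ligase gene NEURL1B (below log2 6 in the knockdown) and the transcription factor TCF19, at -2.68 to -2.27.

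**Figure D1:**
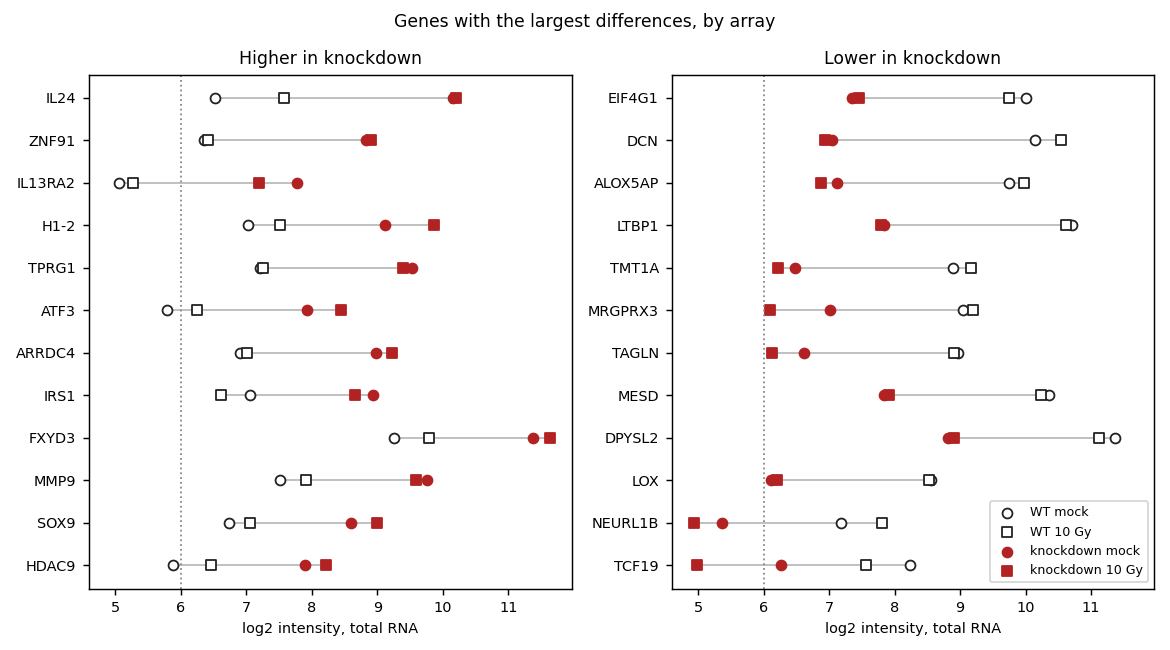
Log2 intensity in each of the 4 total RNA arrays (x axis) for the 12 highest and the 12 lowest genes by difference, outside mitosis, replication and interferon genes; open symbols are WT, filled symbols knockdown, circles mock and squares 10 Gy, with 1 array per symbol, and the dotted line is log2 6. In every row both filled symbols lie on the same side of both open ones. The ranking favours this, since it asked for the same sign and at least 1 on the log2 scale in both pairs. IL13RA2 is below the line in both WT arrays and NEURL1B in both knockdown arrays. ATF3 and HDAC9 are below it in WT mock alone, and TCF19 in the knockdown after 10 Gy alone.

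The 54 gene lists that were described beyond cell cycle and interferon hold 1103 tested genes, of which 235 (21.3%) rose and 273 (24.8%) fell, beside 20.7% and 19.8% of all genes. The counts of each list below are to be read against these shares over all genes, and a list near them shows nothing particular to it. In the serine, glycine and one-carbon list 7 of 15 tested genes fell and 2 rose, with a median of -0.22. PHGDH, the entry enzyme of serine synthesis, read 245 and 157 in the WT arrays and 81.8 and 66.8 in the knockdown arrays (-1.41 ± 0.14, adjusted p = 5.02e-05; p12 = 0.0515). PSAT1, the next enzyme, read 1409.5 and 1368 in the WT arrays and 651 and 551 in the knockdown arrays (-1.21 ± 0.10, adjusted p = 2.3e-05; p12 = 0.0525). Both knockdown arrays were below both WT arrays for these enzymes. ALDH1L2, which oxidises formyl-folate in mitochondria, and TYMS, which makes thymidylate, fell by 1.48 and 1.87 on the log2 scale. MAT2A, which makes S-adenosylmethionine, rose by 0.35 ± 0.10, and GCSH of the glycine cleavage system by 0.25 ± 0.08. Neither passed without a variance trend (adjusted p = 0.08 and 0.101) or without the treatment term (0.0848 and 0.203).

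Of 26 nucleotide synthesis genes 10 fell and 5 rose. The genes that fell at least 2-fold serve deoxynucleotide supply: TK1, thymidine kinase (-1.99 ± 0.14), RRM2 and RRM1, the subunits of ribonucleotide reductase (-1.91 ± 0.17 and -1.43 ± 0.12), DCK, deoxycytidine kinase (-1.43 ± 0.13), and DUT, which removes dUTP (-1.24 ± 0.08). RRM2 read 4757 and 4162 in the WT arrays and 1765 and 795 in the knockdown arrays, so that the irradiated knockdown array was the lowest. The cell cycle lists left out of the ranking fell as well. In replication and repair 88 of 90 tested genes were lower (median -1.36), and in mitosis 110 of 110 (median -1.78). Whether the falls of these deoxynucleotide genes and of TYMS are separate from those lists was not tested. Purine salvage moved the other way in APRT, which read 761 and 750.1 in the WT arrays and 1502 and 1193 in the knockdown arrays (0.83 ± 0.11, adjusted p = 0.000247). Among glutamine, aspartate and asparagine genes, ASS1, which makes argininosuccinate, rose (0.86 ± 0.08), as did ASL, the next enzyme (0.45 ± 0.12). GOT1, the cytosolic aspartate aminotransferase, and GLUL, glutamine synthetase, fell (-0.75 ± 0.11 and -0.61 ± 0.09). With the median of its probe sets GLUL was at -0.08 and no longer passed (adjusted p = 0.67). In that list 2 of 11 genes rose and 4 fell.

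Of 20 sterol synthesis and uptake genes 11 fell and none rose, with a median of -0.42. HMGCS1, which makes the precursor of mevalonate, read 665 and 514 in the WT arrays and 231 and 199 in the knockdown arrays (-1.45 ± 0.11; p12 = 0.0829). ACAT2, EBP and INSIG1, an enzyme of acetoacetyl-CoA formation, an isomerase of late sterol synthesis and a sterol sensor partner, fell by 1.14, 1.09 and 1.01 on the log2 scale. Of 26 fatty acid and glycerolipid genes 5 rose and 7 fell, with a median of 0.03. SCD, which desaturates stearate, read 3784 and 3054 in the WT arrays and 1491 and 1375 in the knockdown arrays (-1.25 ± 0.08), and its other probe sets gave -0.63 to -0.15; the median of all was -0.40 (adjusted p = 0.0511). ELOVL6, the elongase of palmitate, fell (-0.79 ± 0.09), while FADS3, a desaturase family member, and DGAT1, which makes triglyceride, rose (0.81 ± 0.10 and 0.67 ± 0.11). In fatty acid oxidation 5 of 21 genes rose and 2 fell, led by ECI2, an enoyl-CoA isomerase (0.65 ± 0.10), and HADH, a hydroxyacyl-CoA dehydrogenase (-0.86 ± 0.12).

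In glycolysis 3 of 22 genes rose and 4 fell. PDK3, a kinase that turns off pyruvate dehydrogenase, read 176 and 195 in the WT arrays and 71.8 and 75.9 in the knockdown arrays (-1.33 ± 0.12, adjusted p = 4.39e-05; p12 = 0.0473), and PFKFB3, which makes the activator of phosphofructokinase, fell (-1.02 ± 0.11). The glucose transporter gene SLC2A1 and the phosphofructokinase gene PFKM rose (0.55 ± 0.11 and 0.54 ± 0.09). The pentose phosphate pathway, with 7 genes tested, had 3 higher, 1 lower and a median of 0.38. PGLS, the lactonase, read 528 and 612 in the WT arrays and 1063 and 1073 in the knockdown arrays (0.91 ± 0.10, adjusted p = 0.000117), and TKT, transketolase, read 3657 and 3788 in the WT arrays and 5446 and 5585 in the knockdown arrays (0.57 ± 0.06, adjusted p = 0.000132; p12 = 0.0677). Without _x_at and _s_at probe sets TKT stood at 0.42 (adjusted p = 0.0596). RPE, the epimerase between these steps, was the gene that fell (-0.82 ± 0.10). In the tricarboxylic acid cycle 1 of 22 genes rose and 4 fell, with IDH2 (-0.42 ± 0.13) and IDH1 (-0.39 ± 0.10) the lowest. IDH2 did not pass without a filter (adjusted p = 0.0516), without the treatment term (0.0647) or with the median of probe sets (-0.32, 0.156). Polyamine genes included a rise of ODC1, the first enzyme of the pathway (0.62 ± 0.08), and a fall of OAZ1, which encodes its inhibitor antizyme (-0.28 ± 0.06), with 2 of 10 genes higher and 1 lower. OAZ1 did not pass without a variance trend (adjusted p = 0.0839).

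The glutathione and NRF2 list had the most members higher among the metabolic lists. NRF2 is a transcription factor that is held back by KEAP1 and binds antioxidant response elements in the promoters of detoxification genes. Of 24 genes tested 14 rose and 2 fell, with a median of 0.32. NQO1, a quinone reductase, read 1598 and 1607 in the WT arrays and 4709.8 and 4124 in the knockdown arrays (1.46 ± 0.08, adjusted p = 3.67e-06; p12 = 0.0225). AKR1C1, an aldo-keto reductase of steroids and aldehydes, read 3781 and 3883 in the WT arrays and 9022 and 7474 in the knockdown arrays (1.10 ± 0.08, adjusted p = 1.2e-05; p12 = 0.0225). TXNRD1, thioredoxin reductase, read 1152 and 911 in the WT arrays and 2094 and 2136 in the knockdown arrays (1.05 ± 0.10, adjusted p = 6.27e-05; p12 = 0.0705). The knockdown arrays stood above the WT arrays in all 3. AKR1C3 and AKR1C2, close relatives of AKR1C1, rose by 1.17 and 1.01, and ABCC3, an exporter of conjugates, by 1.23. Other probe sets of ABCC3 gave 0.11 to 1.49, and its value without _x_at and _s_at probe sets was 0.11 (adjusted p = 0.58). KEAP1 and GSTO1, a glutathione transferase, fell (-0.42 ± 0.10 and -0.44 ± 0.07). The probe sets of AKR1C1 and AKR1C2 are marked by the array's naming as able to hybridise with related transcripts, so the share of each gene in these readings is uncertain. Among genes described here, the probe sets of PABPC1, DCN, FN1, DUT, MT1E, FTL, SERPINB3, CXCL8, KRT8 and KRT18 carry the same mark.

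The promoters of 3 of these genes that rose are shown because NRF2 acts through a promoter element. Each window runs from 250 bases before to 50 bases after the gene's start, from RefSeq on GRCh38.p14, 5′ to 3′ on the gene's strand. TXNRD1 lies at chr12:104215529-104215828 on the plus strand, and capitals mark the matches to TGACNNNGC, the core of the antioxidant response element, read on both strands. AKR1C1 lies at chr10:4963165-4963464 on the plus strand and AKR1C2 at chr10:5003808-5004107 on the minus strand, and there capitals mark bases with no match in the other window.
TXNRD1: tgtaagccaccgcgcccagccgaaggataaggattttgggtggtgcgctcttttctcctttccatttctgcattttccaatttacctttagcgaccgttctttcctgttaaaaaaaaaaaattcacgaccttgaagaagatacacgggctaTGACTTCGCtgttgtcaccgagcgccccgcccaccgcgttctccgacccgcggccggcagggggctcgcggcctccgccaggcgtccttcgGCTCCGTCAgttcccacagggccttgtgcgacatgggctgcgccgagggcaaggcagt
AKR1C1: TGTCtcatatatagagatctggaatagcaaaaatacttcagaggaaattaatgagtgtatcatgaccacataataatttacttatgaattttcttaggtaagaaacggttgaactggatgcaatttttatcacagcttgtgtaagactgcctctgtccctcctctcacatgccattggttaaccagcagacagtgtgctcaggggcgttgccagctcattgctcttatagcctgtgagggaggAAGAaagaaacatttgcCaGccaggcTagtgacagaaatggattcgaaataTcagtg
AKR1C2: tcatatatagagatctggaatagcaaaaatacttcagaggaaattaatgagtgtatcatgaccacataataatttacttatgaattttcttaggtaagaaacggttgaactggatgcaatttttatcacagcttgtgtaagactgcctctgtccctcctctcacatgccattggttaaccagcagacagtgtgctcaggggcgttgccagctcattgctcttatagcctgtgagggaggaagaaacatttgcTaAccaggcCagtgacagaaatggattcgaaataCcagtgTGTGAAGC
The TXNRD1 window held 2 matches and the AKR1C windows 0 each. The TXNRD1 window was picked as the first of that gene's windows with a match, so the choice itself fixed that it held the core. Another TXNRD1 window, at chr12:104286782-104287081, also held a match. The AKR1C1 and AKR1C2 windows were the same at 288 of 292 aligned bases (98.6%). Among list genes with a window, 2 of 9 that rose and 2 of 2 that fell held the core, as did 3 of 7 that did not pass and 1 of 4 that were not tested. Over all genes with a window the share was 16.1%, and over all 35116 windows 13.3%. A match is a description of the letters in this window and does not show binding.

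Iron genes moved in both directions, with 7 of 22 higher and 11 lower. TFRC, the receptor for iron-loaded transferrin, read 6722 and 6539.7 in the WT arrays and 3684 and 3755 in the knockdown arrays (-0.83 ± 0.06, adjusted p = 1.64e-05), but with the median of its probe sets the value was -0.13 and the call ended (adjusted p = 0.573). FTL, the light chain of the iron store ferritin, read 7414 and 6644 in the WT arrays and 12060.2 and 10814 in the knockdown arrays (0.70 ± 0.05, adjusted p = 1.55e-05). The metal-binding MT1E read 10272 and 10348 in the WT arrays and 4775 and 5208 in the knockdown arrays (-1.05 ± 0.06, adjusted p = 3.67e-06; p12 = 0.0225). SLC11A2, which carries ferrous iron into cells, rose (0.65 ± 0.11).

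Among enzymes of lipid mediators, ALOX5AP stood far below the others, and PTGR1, which inactivates leukotriene B4 and prostaglandins, rose from 410.3 and 468 in WT to 1007 and 973 in the knockdown (1.18 ± 0.11, adjusted p = 3.54e-05; p12 = 0.06). PLA2G4A, the phospholipase that frees arachidonate, rose as well (0.82 ± 0.11). Of 11 such genes 3 rose and 4 fell. ALDH1A3, which makes retinoic acid, read 429 and 498 in the WT arrays and 1227 and 1488 in the knockdown arrays (1.55 ± 0.10, adjusted p = 6.37e-06). CYP1B1, a cytochrome of oestrogen and hydrocarbon metabolism, rose by 1.08 ± 0.16 and by more after 10 Gy (1.45) than in the mock pair (0.71). ALDH7A1 fell (-1.27 ± 0.11; p12 = 0.06).

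Lysosome genes had a median of 0.01, with 4 of 30 higher and 7 lower. CTSD, the aspartic protease cathepsin D, read 139 and 155 in the WT arrays and 338 and 331 in the knockdown arrays (1.19 ± 0.11, adjusted p = 4.41e-05), while the protease CTSV and the hexosaminidase subunit HEXA fell (-0.87 ± 0.10 and -0.80 ± 0.11). Autophagy genes had a median of 0.20, and 8 of 25 rose while 1, WIPI1, fell (-0.39 ± 0.11; adjusted p = 0.0685 without the treatment term). ATG12, part of the conjugation machinery, rose (0.68 ± 0.12), and so did OPTN, a cargo receptor (0.63 ± 0.09), although another probe set of OPTN gave -0.31 and the median of its probe sets 0.16 (adjusted p = 0.315).

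**Figure D2:**
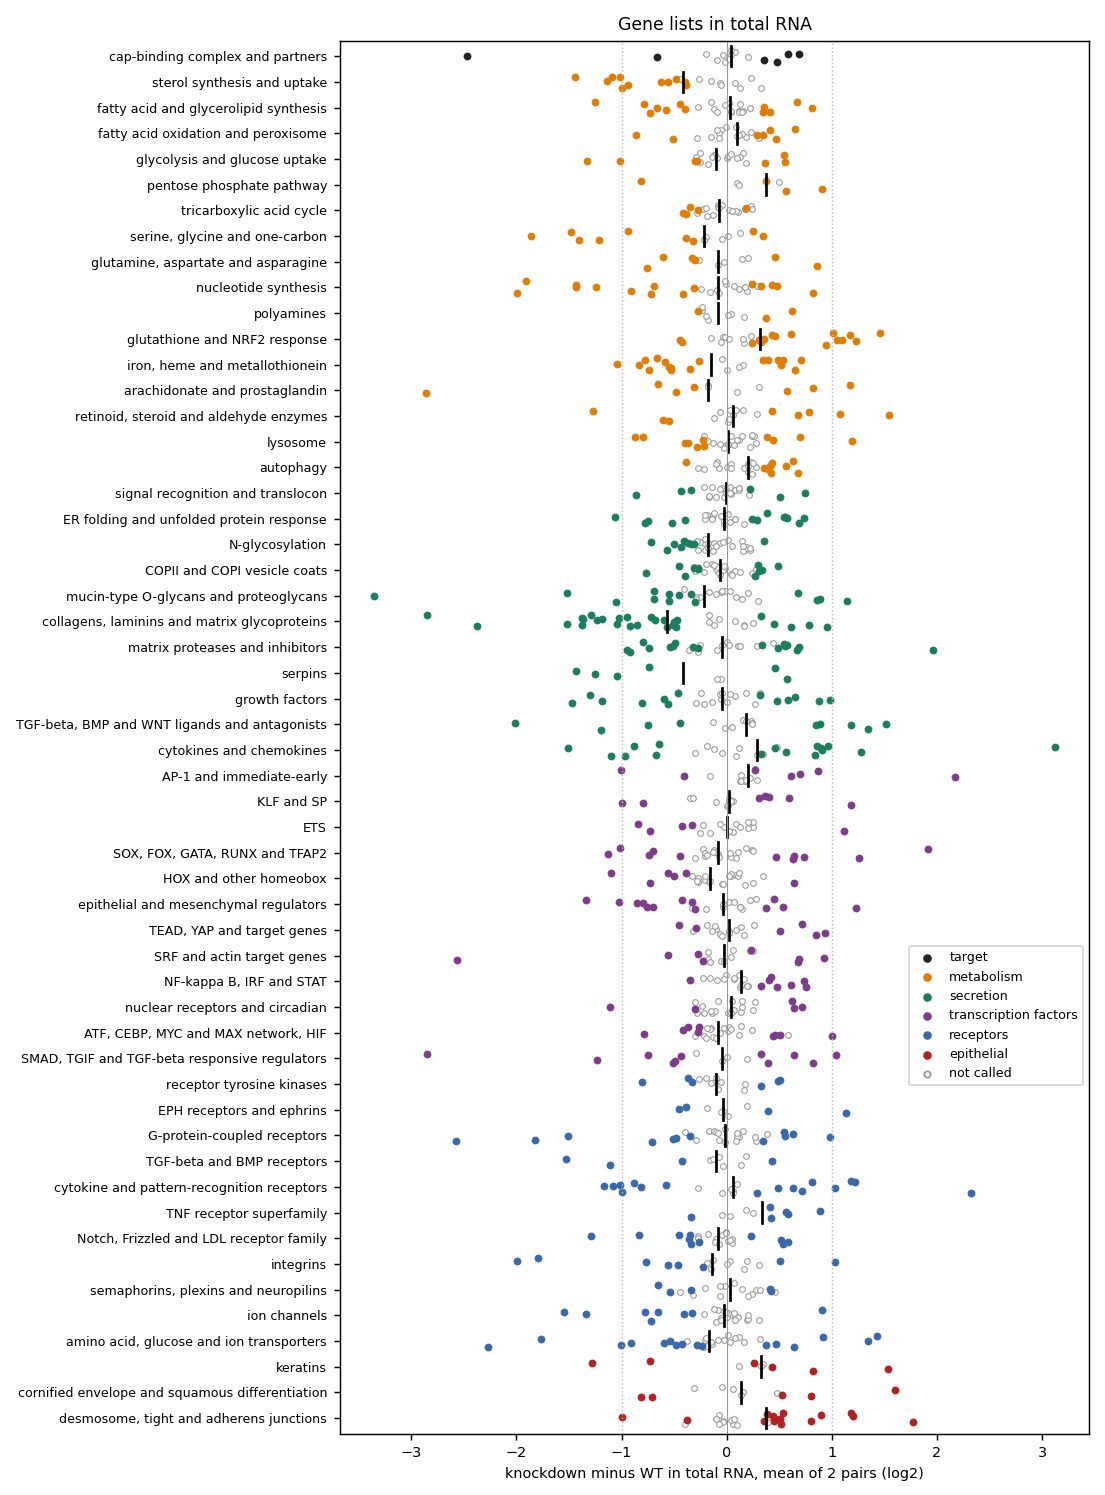
Knockdown minus WT in total RNA (x axis, log2, mean of 2 pairs) for each tested gene of the 54 lists (rows, coloured by class); filled points passed the test, open points did not, and black bars are list medians. The matrix list (median -0.56) lies to the left of the others with as many genes, and the junction and glutathione lists (0.37 and 0.32) lie to the right of 0.

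Lists of the secretory machinery had medians from -0.18 to -0.01. Among signal recognition and translocon genes 3 of 23 rose and 3 fell (median -0.01). Among COPII and COPI vesicle coat genes 5 of 33 rose and 6 fell (median -0.06). SEC11C, a subunit of the signal peptidase, rose (0.74 ± 0.10; 0.36 with the median of probe sets, adjusted p = 0.101), and TRAM2, a translocon-associated protein, fell (-0.86 ± 0.11). In the ER folding and unfolded protein response list 8 of 28 rose and 5 fell. ERN1, the sensor IRE1, and SDF2L1, a chaperone cofactor, rose (0.73 ± 0.13 and 0.68 ± 0.13). SEL1L, the adaptor of ER-associated degradation, and MANF, a secreted ER stress protein, fell (-1.06 ± 0.12 and -0.78 ± 0.09). In N-glycosylation 8 of 31 genes fell and 1 rose, with a median of -0.18. The lowest were the Golgi enzymes MAN2A1 (-0.72 ± 0.10) and MGAT2 (-0.57 ± 0.10). The call of MGAT2 ended with the median of its probe sets (-0.17, adjusted p = 0.311). KDELR3, a receptor that returns ER proteins from the Golgi, fell from 862 and 994 in WT to 536 and 549 in the knockdown (-0.77 ± 0.10).

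The matrix list had the lowest median of the 54 lists. Of 35 tested collagens, laminins and matrix glycoproteins 22 fell and 5 rose, with a median of -0.56. At least 2-fold falls were found in 11 of these 35 genes, where 4.26% of all genes fell as far. The basement membrane collagens COL4A1 and COL4A2, whose genes lie head to head, fell together. COL4A2 read 2805 and 2801 in the WT arrays and 987 and 970.3 in the knockdown arrays (-1.52 ± 0.08, adjusted p = 3.67e-06; p12 = 0.0385), and COL4A1 read 1162 and 1169.9 in the WT arrays and 536 and 594 in the knockdown arrays (-1.05 ± 0.10, adjusted p = 4.39e-05; p12 = 0.0767). COL4A6, another basement membrane collagen, fell as well (-1.19 ± 0.10). FN1, fibronectin, read 12799.5 and 14176 in the WT arrays and 6218 and 7091 in the knockdown arrays (-1.02 ± 0.05, adjusted p = 2.26e-06; p12 = 0.0476), and its 3 other probe sets gave -1.16 to -0.91. The microfibril genes FBN1 and FBN2 fell by 1.29 and 1.37, the matricellular SPARC by 1.37 and FBLN1, fibulin 1, by 1.38 on the log2 scale. P4HA1, which hydroxylates collagen prolines, fell with them (-1.23 ± 0.10). COL16A1, a collagen of small fibrils, was the highest gene of the list and went from 192 and 205 in WT to 390.3 and 380.4 in the knockdown (0.96 ± 0.11). COL1A1 rose by 0.78, but its other probe sets gave -0.20 and 0.18.

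Fibroblast markers were read beside these matrix genes. Of 10 such markers 7 were below log2 6 in every total RNA array, including the defining COL1A2, COL3A1, PDGFRA, PDGFRB and THY1. The summed intensity of the 10 was 2423 and 2824 in the WT arrays and 1011 and 1099 in the knockdown arrays, and DCN and FAP made up most of it. FAP, a surface protease, read 1047 and 1083 in the WT arrays and 577 and 697 in the knockdown arrays (-0.75 ± 0.10). The part of other cell types in these results was not tested.

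In mucin-type O-glycans and proteoglycans, 10 of 28 genes fell and 4 rose. Besides DCN, HS6ST2, which sulfates heparan chains, read 960.0 and 948 in the WT arrays and 358 and 308 in the knockdown arrays (-1.52 ± 0.11, adjusted p = 1e-05), and the mucin MUC1 read 569 and 607 in the WT arrays and 278 and 291 in the knockdown arrays (-1.05 ± 0.10, adjusted p = 5.54e-05). HAS3, a hyaluronan synthase, read 91.8 and 97.4 in the WT arrays and 222 and 198 in the knockdown arrays (1.15 ± 0.12, adjusted p = 9.73e-05; p12 = 0.0694), and SULF2, which removes heparan sulfates, rose (0.89 ± 0.11; adjusted p = 0.0667 without the treatment term). Of 29 matrix proteases and inhibitors 8 rose and 9 fell. MMP9 read 182 and 241 in the WT arrays and 867 and 768 in the knockdown arrays (1.96 ± 0.14, adjusted p = 1.14e-05; p12 = 0.032), the urokinase receptor gene PLAUR rose (0.68 ± 0.11), and the metalloprotease ADAM19 fell (-0.95 ± 0.12). TIMP2, a metalloprotease inhibitor, fell by 0.92 on the log2 scale, with 1 other probe set at 0.92 in the opposite direction. Serpins, inhibitors of serine proteases, had 4 of 8 lower and 2 higher. SERPINB3 read 541 and 326 in the WT arrays and 180.1 and 135 in the knockdown arrays (-1.43 ± 0.12). SERPINA1, antitrypsin, read 196 and 279.8 in the WT arrays and 86.5 and 112 in the knockdown arrays (-1.25 ± 0.12), and SERPINA3 fell to values below log2 6.

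Cytokines and chemokines had 10 of 25 genes higher and 6 lower, with a median of 0.29. IL6 read 134 and 146 in the WT arrays and 349 and 328 in the knockdown arrays (1.27 ± 0.11, adjusted p = 3.4e-05). CXCL8, interleukin-8, read 1325 and 2229.7 in the WT arrays and 869.6 and 736 in the knockdown arrays (-1.10 ± 0.18, adjusted p = 0.00114), with the WT reading higher and the knockdown reading lower after 10 Gy than in mock. The complement protease gene C1R fell from 266 and 324 in WT to 115 and 92.3 in the knockdown (-1.51 ± 0.15). Ligands and antagonists of the TGF-beta, BMP and WNT families had 5 of 17 higher and 4 lower. BMP2 read 143 and 179 in the WT arrays and 449.7 and 463 in the knockdown arrays (1.52 ± 0.12, adjusted p = 1.57e-05), FST, follistatin, read 384 and 333 in the WT arrays and 1026 and 801 in the knockdown arrays (1.34 ± 0.10, adjusted p = 1.64e-05; p12 = 0.0476), and INHBA, which encodes activin A, read 1987 and 3047 in the WT arrays and 5045 and 6187 in the knockdown arrays (1.18 ± 0.09, adjusted p = 1.3e-05; p12 = 0.642). Both an activin subunit and its antagonist were thus higher. FSTL1, a secreted glycoprotein, read 1502 and 1295 in the WT arrays and 341 and 351 in the knockdown arrays (-2.01 ± 0.11, adjusted p = 2.87e-06; p12 = 0.029), and TWSG1, a BMP-binding protein, fell (-1.19 ± 0.10). Growth factors had 6 of 26 higher and 7 lower. PDGFA and FGF2 rose (0.98 ± 0.11 and 0.88 ± 0.14), while STC1, stanniocalcin, KITLG, the ligand of KIT, and FGFBP1, which releases FGFs from the matrix, fell by 1.47, 1.30 and 1.18 on the log2 scale. FGFBP1 read 944 and 412 in the WT arrays and 411 and 184 in the knockdown arrays, lower after 10 Gy in both genotypes, and without the treatment term it did not pass (adjusted p = 0.0854).

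Transcription factors are described by single members, beside 20.7% higher and 19.8% lower over all genes. AP-1 and immediate-early genes had 5 of 16 higher and 2 lower. FOS read 148 and 156 in the WT arrays and 77.7 and 74.3 in the knockdown arrays (-1.0 ± 0.13) and IER3, an apoptosis regulator, read 3853 and 4390.2 in the WT arrays and 7688 and 7313 in the knockdown arrays (0.87 ± 0.07, adjusted p = 2.76e-05; p12 = 0.0433). KLF4, a factor of epithelial differentiation, read 141 and 231 in the WT arrays and 347 and 483 in the knockdown arrays (1.18 ± 0.11), whereas KLF12 fell (-1.0 ± 0.12) and its other probe set gave -0.15. EHF, an epithelial ETS factor, rose from 249 and 292 in WT to 534 and 642 in the knockdown (1.12 ± 0.10), against falls of ETS2 (-0.73 ± 0.10) and FLI1 (-0.84 ± 0.11). The median of probe sets gave -0.04 for ETS2, which then did not pass (adjusted p = 0.83). Of the 18 ETS genes 1 rose and 4 fell. Among SOX, FOX, GATA, RUNX and TFAP2 genes 6 of 28 rose and 5 fell, with SOX15 next to SOX9 (1.26 ± 0.10) and FOXQ1 and FOXC2 the lowest (-1.13 ± 0.14 and -1.01 ± 0.12). SOX15 has another probe set at 0.20.

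ID1, an inhibitor of basic helix-loop-helix factors and a classical BMP target, read 3040.1 and 2909.5 in the WT arrays and 1399 and 988 in the knockdown arrays (-1.34 ± 0.11, adjusted p = 2.12e-05). In the list of epithelial and mesenchymal regulators that holds it, 9 of 24 genes fell and 4 rose. The homeobox list had 5 of 25 lower and 1 higher, and IRX3 was its lowest (-1.10 ± 0.11). PMEPA1, a TGF-beta-induced inhibitor of SMAD signalling, read 3859 and 3998 in the WT arrays and 1539 and 1818 in the knockdown arrays (-1.23 ± 0.08, adjusted p = 8.27e-06; p12 = 0.0372), while BAMBI, a decoy receptor, and SMURF1, a ubiquitin ligase for SMADs, rose (1.04 ± 0.12 and 0.82 ± 0.11). Of the SMAD and TGF-beta responsive list 5 of 15 rose and 6 fell. PPARD, a nuclear receptor for fatty acids, fell from 305 and 303 in WT to 137 and 145 in the knockdown (-1.11 ± 0.11), and MXD1, a MAX partner that opposes MYC, rose from 138 and 165 in WT to 299 and 304 in the knockdown (1.0 ± 0.12). In nuclear receptor and circadian genes 3 of 24 rose and 2 fell, and in the ATF, CEBP, MYC and HIF list 4 of 26 rose and 5 fell.

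NF-kappa B, IRF and STAT genes had 7 of 21 higher and 1 lower, led by STAT4 (0.75 ± 0.16) and IRF9 (0.73 ± 0.14). Targets of TEAD and YAP had 4 of 19 higher and 2 lower. F3, tissue factor, read 2606 and 2167 in the WT arrays and 4541 and 4555 in the knockdown arrays (0.94 ± 0.08, adjusted p = 3.4e-05; p12 = 0.0609), while CCN2 did not pass and had opposite signs in the pairs (-0.73 mock, 0.09 irradiated). SRF and actin targets had 4 of 17 in each direction. ACTA2, smooth muscle actin, rose (0.93 ± 0.11) whereas TAGLN, often counted with it, was among the 12 lowest ranked genes in the probe set used. Without _x_at and _s_at probe sets TAGLN was at -0.13 and did not pass.

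Receptors for TGF-beta and BMP were lower in 3 of 10 cases and higher in 1. TGFBR1, the type I TGF-beta receptor, read 843 and 894 in the WT arrays and 392 and 416 in the knockdown arrays (-1.11 ± 0.10, adjusted p = 3.59e-05; p12 = 0.3). BMPR2, the type II BMP receptor, read 539 and 591 in the WT arrays and 179 and 213 in the knockdown arrays (-1.53 ± 0.11, adjusted p = 1e-05), with other probe sets from -1.43 to -0.24, and did not pass with their median (-0.29, adjusted p = 0.182). TGFBR2 did not pass (0.18 ± 0.08), and ACVR2A, an activin receptor, rose (0.43 ± 0.12).

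Cytokine and pattern-recognition receptors moved in both directions, with 9 of 22 higher and 7 lower. The RNA sensors IFIH1 and TLR3 rose (1.22 ± 0.13 and 1.03 ± 0.13), as did the interleukin-1 decoy receptor gene IL1R2 (1.18 ± 0.15). CD14, the co-receptor for bacterial lipopolysaccharide, fell to below log2 6 (-1.17 ± 0.14), and IL7R fell more after 10 Gy (-1.49) than in the mock pair (-0.55). IL13RA1, the signalling receptor for interleukin-13, fell by 1.08 on the log2 scale in the probe set used, and its other probe sets gave 0.00 to 0.24. TNF receptor family genes had 5 of 10 higher and 1 lower, led by TNFRSF21, death receptor 6 (0.89 ± 0.11), and TNFRSF10A, a TRAIL receptor (0.58 ± 0.11).

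Receptor tyrosine kinases had 3 of 15 genes in each direction. AXL and MST1R rose (0.51 ± 0.13 and 0.49 ± 0.13), and TYRO3 and MET, the receptor for hepatocyte growth factor, fell (-0.80 ± 0.16 and -0.37 ± 0.08). With the median of probe sets AXL (0.41, adjusted p = 0.0566) and MET (-0.40, adjusted p = 0.274) did not pass. EPHA2, an ephrin receptor of epithelia, read 899 and 852 in the WT arrays and 1864 and 1974 in the knockdown arrays (1.13 ± 0.09, adjusted p = 2.24e-05; p12 = 0.0929), while 2 of 9 EPH and ephrin genes rose and 2 fell. Of 29 G-protein-coupled receptors 5 rose and 7 fell. MRGPRX3 read 530.2 and 584 in the WT arrays and 129 and 68.1 in the knockdown arrays (-2.57 ± 0.20, adjusted p = 1.81e-05; p12 = 0.0244), and S1PR3, a receptor for sphingosine phosphate, fell from 129 and 154 in WT to 49.8 and 49.7 in the knockdown (-1.50 ± 0.15). GPR180 fell by 1.83, and the adhesion receptor gene ADGRG1 rose (0.98 ± 0.11). In the Notch, Frizzled and LDL receptor family 4 of 24 rose and 7 fell, with NOTCH1 (0.58 ± 0.11) and FZD5 (-1.29 ± 0.15) among them. NOTCH1 did not pass with the median of probe sets (0.30, adjusted p = 0.0984) or without the treatment term (adjusted p = 0.0826).

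Of 16 integrin genes 2 rose and 6 fell. ITGB4, which anchors hemidesmosomes, read 1023 and 1017 in the WT arrays and 2105 and 2067 in the knockdown arrays (1.03 ± 0.09, adjusted p = 2.5e-05), with other probe sets from 0.02 to 0.97. ITGA1, a collagen receptor, read 170.4 and 197 in the WT arrays and 42.7 and 49.3 in the knockdown arrays (-2.0 ± 0.14, adjusted p = 9.11e-06; p12 = 0.0608), and ITGA10, another collagen receptor, read 118 and 174 in the WT arrays and 40.2 and 42.5 in the knockdown arrays (-1.79 ± 0.16, adjusted p = 3.89e-05; p12 = 0.0433). The knockdown readings of both are below log2 6. Semaphorins, plexins and neuropilins had 2 of 18 higher and 3 lower, with SEMA3C (0.42 ± 0.09) and SEMA4B (-0.66 ± 0.11) at the ends that passed. SEMA3C did not pass without the treatment term (adjusted p = 0.0545).

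Of 32 amino acid, glucose and ion transporters 10 fell and 6 rose (median -0.16). SLC7A2, a carrier of arginine and lysine, read 1260.3 and 1480.0 in the WT arrays and 294 and 273 in the knockdown arrays (-2.27 ± 0.11, adjusted p = 2.26e-06; p12 = 0.0515). SLC43A3, a purine base carrier, read 878 and 676 in the WT arrays and 289.6 and 177 in the knockdown arrays (-1.77 ± 0.12, adjusted p = 8.07e-06; p12 = 0.0372). SLC1A3, a glutamate carrier, rose from 209 and 186 in WT to 480.3 and 521 in the knockdown (1.35 ± 0.11), and ABCA12, a lipid exporter of keratinocytes, from 122 and 195 in WT to 354 and 486 in the knockdown (1.43 ± 0.11). Of 27 ion channel genes 7 fell and 1 rose. The potassium channel genes KCNJ15 and KCNS3 fell by 1.55 and 1.34, and the gene that rose was AQP3, a glycerol and water channel, in a probe set below log2 6 in WT (0.91 ± 0.15), with its 2 other probe sets at -0.17 and 0.07.

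Junction genes were more often higher than lower. Of 26 desmosome, tight and adherens junction genes 13 rose and 2 fell, with a median of 0.37. EPCAM, an epithelial adhesion molecule, read 445 and 395 in the WT arrays and 1617 and 1272 in the knockdown arrays (1.77 ± 0.10, adjusted p = 3.67e-06; p12 = 0.109). CDH1, E-cadherin, read 552 and 633 in the WT arrays and 1269 and 1457 in the knockdown arrays (1.20 ± 0.09, adjusted p = 1.82e-05; p12 = 0.0867), and OCLN, occludin, read 72.6 and 71.9 in the WT arrays and 161 and 166 in the knockdown arrays (1.18 ± 0.13, adjusted p = 9.68e-05). CDH2, N-cadherin, went the other way, at 234 and 253 in the WT arrays and 125 and 118 in the knockdown arrays (-1.0 ± 0.12, adjusted p = 0.000146). The desmosomal DSC2 and the P-cadherin gene CDH3 rose (0.80 ± 0.11 and 0.51 ± 0.08).

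The basal keratins KRT14 and KRT5 fell, with KRT14 at 10674 and 9369 in the WT arrays and 4251 and 3962 in the knockdown arrays (-1.28 ± 0.06, adjusted p = 2.21e-06; p12 = 0.06) and KRT5 at 5696 and 5284 in the WT arrays and 3243 and 3373 in the knockdown arrays (-0.73 ± 0.07, adjusted p = 5.3e-05; p12 = 0.0547). The simple keratins rose, with KRT18 at 4500.3 and 4608 in the WT arrays and 8373 and 7729 in the knockdown arrays (0.82 ± 0.06, adjusted p = 1.81e-05; p12 = 0.0515) and KRT8 going from 489 and 505 in WT to 684 and 657 in the knockdown (0.43 ± 0.10). KRT80, a keratin of differentiating layers, rose from below log2 6 (1.53 ± 0.17), and PPL, periplakin of the cornified envelope, read 80.9 and 91.3 in the WT arrays and 214 and 316 in the knockdown arrays (1.60 ± 0.13, adjusted p = 2.3e-05; p12 = 0.0497). Of 9 keratins 4 rose and 2 fell, and of 11 cornified envelope and squamous genes 3 rose and 2 fell. Over the luminal marker list the summed intensity was 6442 and 6619 in the WT arrays and 10220 and 9549 in the knockdown arrays, most of it KRT18. Of the 7 luminal markers tested 2, KRT18 and KRT8, rose and 1, MUC1, fell, with a median of 0.02. ESR1, PGR, FOXA1 and KRT19, which define the hormone-responsive luminal cell, were below log2 6 in all 4 arrays. Of the 10 basal markers measured 5 rose and 2, KRT14 and KRT5, fell, with a median of 0.11. Their summed intensity was 58048 and 57231 in WT and 52222 and 53434 in the knockdown.

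The 2 pairs of total RNA resembled each other outside the cell cycle. Of the 4113 genes (40.5%) that passed, 0 had opposite signs in the pairs, a property that the test itself favours, since its spread is the difference between them. Of the 10157 genes tested, 2113 had opposite signs. The irradiated pair was lower than the mock pair by at least 1 on the log2 scale in 81 genes, 61 of which were mitosis, replication or interferon genes, and higher by as much in 7. These differences compare 1 array with 1 in each pair and were not tested. In the matrix list the medians were -0.58 (mock) and -0.70 (irradiated), in the glutathione list 0.36 and 0.33, and in the sterol list -0.44 and -0.39. The mitosis list, for comparison, had medians of -1.27 and -2.29. Cytokines had medians of 0.37 and 0.08, further apart than in the matrix, glutathione and sterol lists, and 22 of 25 were lower in the irradiated pair. The same held for 22 of 29 matrix proteases and inhibitors, 21 of 29 G-protein-coupled receptors and 18 of 24 glutathione genes. It also held for 4 of 15 SMAD and TGF-beta responsive genes and 6 of 19 TEAD and YAP genes. The share over all genes was not counted, so none of these counts can be read as a lean of its list.

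**Figure D3:**
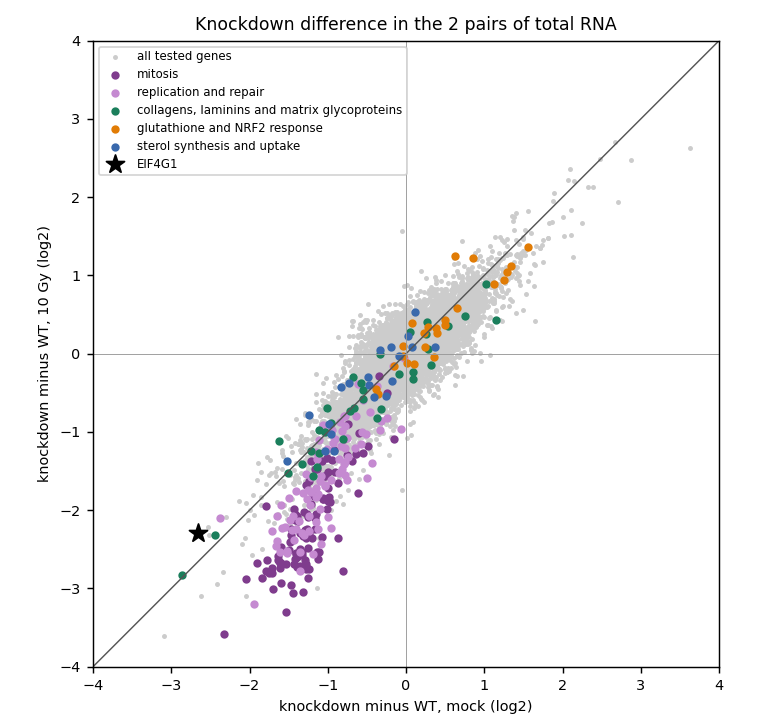
Knockdown minus WT in the irradiated pair (y axis, log2) against the mock pair (x axis, log2) for all 10157 tested genes, with 5 lists coloured, EIF4G1 as a star and the diagonal of equal differences. Matrix, glutathione and sterol genes follow the diagonal, while mitosis genes, with medians of -1.27 and -2.29, lie below it.

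The difference in total RNA did not always hold in the polysome pools of the same conditions. Over all genes the median difference was 0.00 in LMW and 0.00 in HMW. The matrix list, at a median of -0.56 in total RNA, had medians of 0.76 in LMW and 0.34 in HMW, and serpins, at -0.42, had 0.72 and 0.44. Positive medians in the pools were not particular to these lists. ER folding genes had 0.97 in LMW and 0.48 in HMW, lysosome genes 0.87 and 0.53, and integrins 0.87 and 0.67. Polyamine genes went the other way, at -0.65 and -0.20. The glutathione list, at 0.32 in total RNA, had -0.08 and 0.18, whereas junctions had 0.37, 1.60 and 1.09. To test this gene by gene, a contrast chosen after these values were seen compared the knockdown difference in total RNA with the mean of that in the pools, in limma over all 12 arrays with 3 residual degrees of freedom. In 33 genes (0.325%) total RNA lay below the pools and in 2 (0.0197%) above them. Of these 35 genes 11 are among those named here.

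In DCN the difference was -3.10 and -3.61 in the pairs of total RNA, 3.25 and 3.29 in LMW, and 3.06 and 2.58 in HMW (contrast -6.40, adjusted p = 0.00107). FN1 had -1.04 and -1.0 in total RNA, 1.78 and 1.57 in LMW, and 2.58 and 2.21 in HMW (contrast -3.05, adjusted p = 0.00255). SERPINB3 had -1.59 and -1.27 against 3.85, 3.56, 3.30 and 2.86 (contrast -4.83, adjusted p = 0.00215). For these 3 every pair of pools went against both pairs of total RNA. The same pattern in all 6 pairs was found for FBN2 (-3.41, adjusted p = 0.0127), SLC7A2 (-3.50, adjusted p = 0.0474) and HSD17B2, an enzyme that inactivates oestradiol (-3.79, adjusted p = 0.0071). LTBP1, at -2.85 in total RNA, was near 0 on average in the pools (-0.24 in LMW and -0.17 in HMW; adjusted p = 0.0497). COL4A2 had 0.73 and 0.10 in the pools (adjusted p = 0.0497).

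Others had the same direction at another size. CDH1 was 1.20 in total RNA, 4.75 in LMW and 2.82 in HMW (contrast -2.59, adjusted p = 0.0307), and AQP3 was 0.91, 4.58 and 4.22 (adjusted p = 0.0237). NQO1 was the named gene on the other side, at 1.46 in total RNA against -0.10 and 0.00 in the pools (contrast 1.51, adjusted p = 0.0239). AKR1C1, by comparison, had 1.10, 1.14 and 0.76, and its contrast did not pass (0.15, adjusted p = 0.646). IL24 was 3.62 and 2.62 in the pairs of total RNA and 2.85 to 3.21 in LMW. All arrays carry 1 sample each and the preparations were made in different ways, so preparation and array cannot be told apart.

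**Figure D4:**
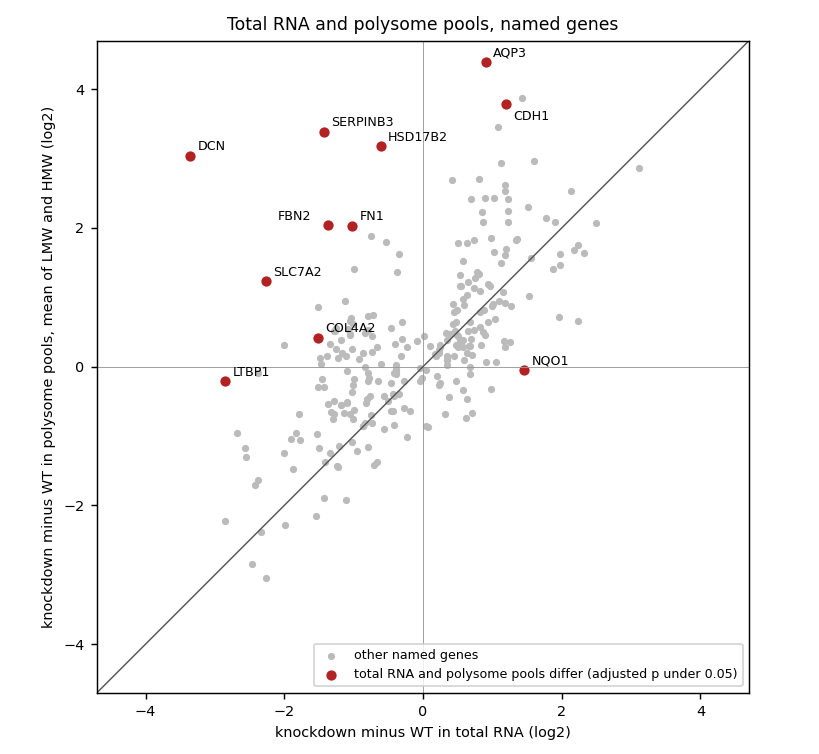
Knockdown minus WT in the polysome pools (y axis, log2, mean of LMW and HMW) against that in total RNA (x axis, log2) for the named genes, with the diagonal of equal differences; red points are the 11 named genes whose contrast had an adjusted p under 0.05. DCN, SERPINB3, HSD17B2, FBN2, FN1, SLC7A2 and COL4A2 lie in the quadrant that is lower in total RNA and higher in the pools, and NQO1 is the red point below the diagonal.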

How the data were processed

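Deposited values were probe set intensities on a linear scale, made with RMA (version not given in the sources used here) per the submitters' processing notes, which do not say whether the 12 arrays were normalized jointly. Labelled cRNA came from a 3' in vitro transcription kit, per the labels' protocols. Of 54675 probe sets, those with 1 gene symbol in the platform annotation (41097) were taken to log2. Another 1801 had several symbols and 11777 were not listed. For each gene the probe set of highest mean log2 value was kept. Genes at log2 6 or more in at least 4 arrays were tested (10157 of 19775). limma 3.58.1 in R 4.3.3 fitted genotype and treatment on the 4 total RNA arrays (eBayes with a trend, 1 residual degree of freedom, Benjamini-Hochberg at 0.05). The number of arrays limits the precision. The scripts were tested on simulated data.

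The arrays follow from their titles, but this comparison, the gene lists, the genes described and the tests were chosen with earlier results of these data known. The rule for named genes took EIF4G1, the cap-binding list, the 12 highest and 12 lowest genes that passed, with at least 1 on the log2 scale in both pairs and outside mitosis, replication and interferon lists, and in each list the members that passed at least 2-fold plus the 2 highest and 2 lowest; it gave 273 genes, of which the text prints part. Alternatives were other filters (none, 7, or total RNA arrays alone), the median of a gene's probe sets, and no _x_at or _s_at probe sets. Further ones were loess, quantile, a pseudocount of 16, no trend, no treatment term, all 12 arrays, and each pair left out. Mature microRNA and protein sequences were not used.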

Additional observations from a re-analysis of the deposited data

Results flagged for a closer look

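These genes are listed because their knockdown difference in total RNA and in the polysome pools differed in the contrast over all 12 arrays (limma, adjusted p under 0.05), a test chosen after the values were seen. Total RNA lay below the pools for DCN (-6.40), SERPINB3 (-4.83), HSD17B2 (-3.79), SLC7A2 (-3.50), AQP3 (-3.49), FBN2 (-3.41), FN1 (-3.05), LTBP1 (-2.64), CDH1 (-2.59) and COL4A2 (-1.93), each on the log2 scale. Above the pools lay NQO1 (1.51). Of the 35 genes that passed over the whole table, 27 passed without a variance trend.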

How the results depend on the processing

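Counts of genes that passed were 2100 higher and 2013 lower. Without a filter, with a filter at 7 or on total RNA arrays alone, after loess or quantile normalization, with a pseudocount of 16, without a trend and without the treatment term they stayed within 1.5 times of these. The share of higher calls, 51.1%, was 46% after loess and 54.6% after quantile normalization. Taking a gene's median over its probe sets gave 1303 higher and 1389 lower, and leaving out _x_at and _s_at probe sets 1314 and 1531. The spread pooled over all 12 arrays gave 36 higher and 71 lower. Leaving out each pair in turn, in that pooled fit, gave 0 in either direction, with 488 (without the mock pair) and 380 (without the irradiated pair) at an unadjusted p under 0.05. Genes that differed by at least 1 (log2) between the pairs numbered 88, 179 without a filter and 43 with the pseudocount. Of the 244 named genes that passed, 203 lost the call with the pooled spread, and 21 of the 195 that could be compared lost it, and 10 reversed, with the median of probe sets.

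Reversals came from the choice of probe set alone. With the median of probe sets the difference was -0.69 for EIF4E, -0.36 for EIF4E2, 0.35 for EIF4B, -0.36 for IDH3A, -0.15 for CTPS2, -0.13 for ALG13, -0.20 for COL1A1, -0.01 for TGIF1, 0.14 for ATF2, 0.01 for CREB3L2, 0.15 for IL13RA1, -0.06 for AQP3 and 0.06 for TGM2. Without _x_at and _s_at probe sets it was -0.69 for EIF4E, -1.19 for EIF4E2, -0.79 for CTPS2, -0.47 for LAMP2, -0.31 for OPTN, -0.04 for TGIF1, 0.15 for NR3C1 and 0.01 for CREB3L2. The cause was not tested. The treatment term pairs the arrays by title; without it 1503 genes rose and 1593 fell.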

Other observations

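Outside the named genes, the contrast between total RNA and the polysome pools also passed for several secreted or epithelial genes, chosen here after their values were seen. The complement genes C3 and CFB had 0.86 and -0.96 in total RNA against 4.09 and 1.24 on average in the pools (contrast -3.23, adjusted p = 0.00215, and -2.21, adjusted p = 0.033). COL12A1, a fibril-associated collagen, had -0.49 against 2.17 (contrast -2.65, adjusted p = 0.0237). TGFBI, a TGF-beta-induced matrix protein, had -0.50 against 0.26 (contrast -0.77, adjusted p = 0.0343), and the collagenase gene MMP1 had 0.44 against 4.57 (contrast -4.13, adjusted p = 0.0237). The second gene above the pools was IFI6, an interferon-induced gene, at 2.67 in total RNA and 0.22 in the pools (contrast 2.45, adjusted p = 0.0237). The cause was not tested.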
